A study of Mus musculus with 6 samples.

Results

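The cytosolic ribosomal proteins are the structural proteins of the ribosome that works in the cytoplasm, and their mRNAs were followed here in the dorsal forebrain of mouse embryos. Members were the genes whose symbol in the authors' table is Rpl or Rps with a number and at most a letter, together with Rplp0, Rplp1, Rplp2 and Rpsa; ribosomal S6 kinases and pseudogene names were left out. The rule gave 78 genes, 47 of the large subunit and 31 of the small, out of 21328 rows tested (genes, plus probes that carry no gene name). The table has a second, sparser symbol column in which 11 genes meet the rule, and the fuller column was used. Each gene was read from its brightest probe, and all 78 passed the filter on dim probes.

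Total RNA was taken from single embryos at E11.5, 3 labelled control and 3 labelled mutant. Time-mated females supplied the embryos, and the dorso-medial pallium was dissected and frozen. The labels name neither the strain nor the mutated gene, its alleles or any driver; the series title places the comparison in Wnt/b-catenin signalling in cortical precursors. Control 1 and mutant 1 shared litter 1, and litters 2 and 3 gave the other pairs.

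Ribosomal protein mRNAs are among the most abundant in dividing cells. In mammals they share a terminal oligopyrimidine (TOP) start, a C followed by an unbroken run of C or T, through which mTORC1 and the RNA-binding protein LARP1 adjust their translation with nutrients and growth signals. Their transcription is raised by MYC family factors. A shortage of single ribosomal proteins is known to free RPL5 and RPL11 to bind MDM2 and so to stabilise p53, and neural precursors are among the cells known to be sensitive to it.

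The rule did not use the start sequences, in which some features were more frequent among members than among all genes. Of the 78 genes, 58 were matched by gene identifier to a promoter in the RefSeq set of build GRCm38.p6, each window running from 250 bases before the annotated start to 50 after it, and the first listed start was used. A C followed by at least 4 bases that are each C or T stood exactly at the annotated start in 12 of 58 members, or 20.7%, against 2.49% of 27025 genes. Such a run began within 10 bases of the start in 32 of 58 members, or 55.2%, against 30.8% of all genes. Annotated starts can be off by some bases, so the count at the exact start is a count of these windows only. Below are 6 of the 12, chosen for members named in the results (Rplp2, Rps27, Rps6 and Rpl35) and for the longest runs (Rpl15 and Rpl35, then Rps10). Each covers 10 bases before the start and the first 20 transcribed bases. The pyrimidine run is counted from the start and is in capitals. Any C or T bases just before the start are in lower case and not counted.
Rplp2, chr7:141447641-141447670, plus strand: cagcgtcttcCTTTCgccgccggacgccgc
Rps27, chr3:90213629-90213658, minus strand: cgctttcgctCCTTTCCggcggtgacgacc
Rps6, chr4:86857348-86857377, minus strand: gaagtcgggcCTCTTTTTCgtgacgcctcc
Rpl35, chr2:39005112-39005141, minus strand: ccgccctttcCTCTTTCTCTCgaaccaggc
Rpl15, chr14:18270967-18270996, minus strand: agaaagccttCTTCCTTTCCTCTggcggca
Rps10, chr17:27635225-27635254, minus strand: gcgcacgcccCTTCCTTTCCagcctccgcc
Counted from the start, the run is 5 bases long in Rplp2 and 13 in Rpl15. The letters CCGGAAG, searched on both strands, were in 25 of 58 member windows, or 43.1%, and in 9.12% of all. TATAAA was in 5 members (8.6%, against 14.2% of all) and CACGTG, the E-box that MYC binds, in 5 (8.6%, against 7.24%). The median difference between mutant and control was 0.02 on the log2 scale for the 12 members with a run at the start (range -0.09 to 0.09) and 0.01 for the other 46 (range -0.12 to 0.40).

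Levels below are log2 of the processed signal minus the array's 75th percentile, so that 0 is that percentile; differences are mutant minus control on the same scale. No member passed the test. In the limma fit over all rows, 0 of 78 members passed an adjusted p of 0.05, where 7 of 21328 rows (0.0328%) did, 2 of them higher in mutants (0.00938%) and 5 lower (0.0234%). With litter as a block 0 rows passed. Without any 1 embryo 0 rows passed, except 1 row without mutant 1. At an unadjusted p under 0.05 stood 1 member, Rpl21, against 16.8% of all rows. The members' levels in the mutant embryos overlapped those of the controls in all but 2 genes, Rpl21 and Rpl10, while 24.8% of all rows did not overlap.

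The members' differences were small as well as uncalled. Their median was 0.0095, with 42 positive and 36 negative, and the median over all rows was 0.02. The median size of a difference, sign ignored, was 0.05 among members and 0.14 over all rows. Under 0.2 were 77 of 78 members and 62.1% of all rows. The 992 brightest non-member rows (the top 5% by signal) had a median size of 0.07, with 87.1% under 0.2. Of these bright rows 6.1% had an unadjusted p under 0.05 in limma, and 19.4% did not overlap. The 95% interval of the difference lay within 1.5-fold in either direction for 77 members; the exception was Rpl39l. Large subunit genes had a median difference of 0.0093 and small subunit genes of 0.02.

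**Figure D1:**
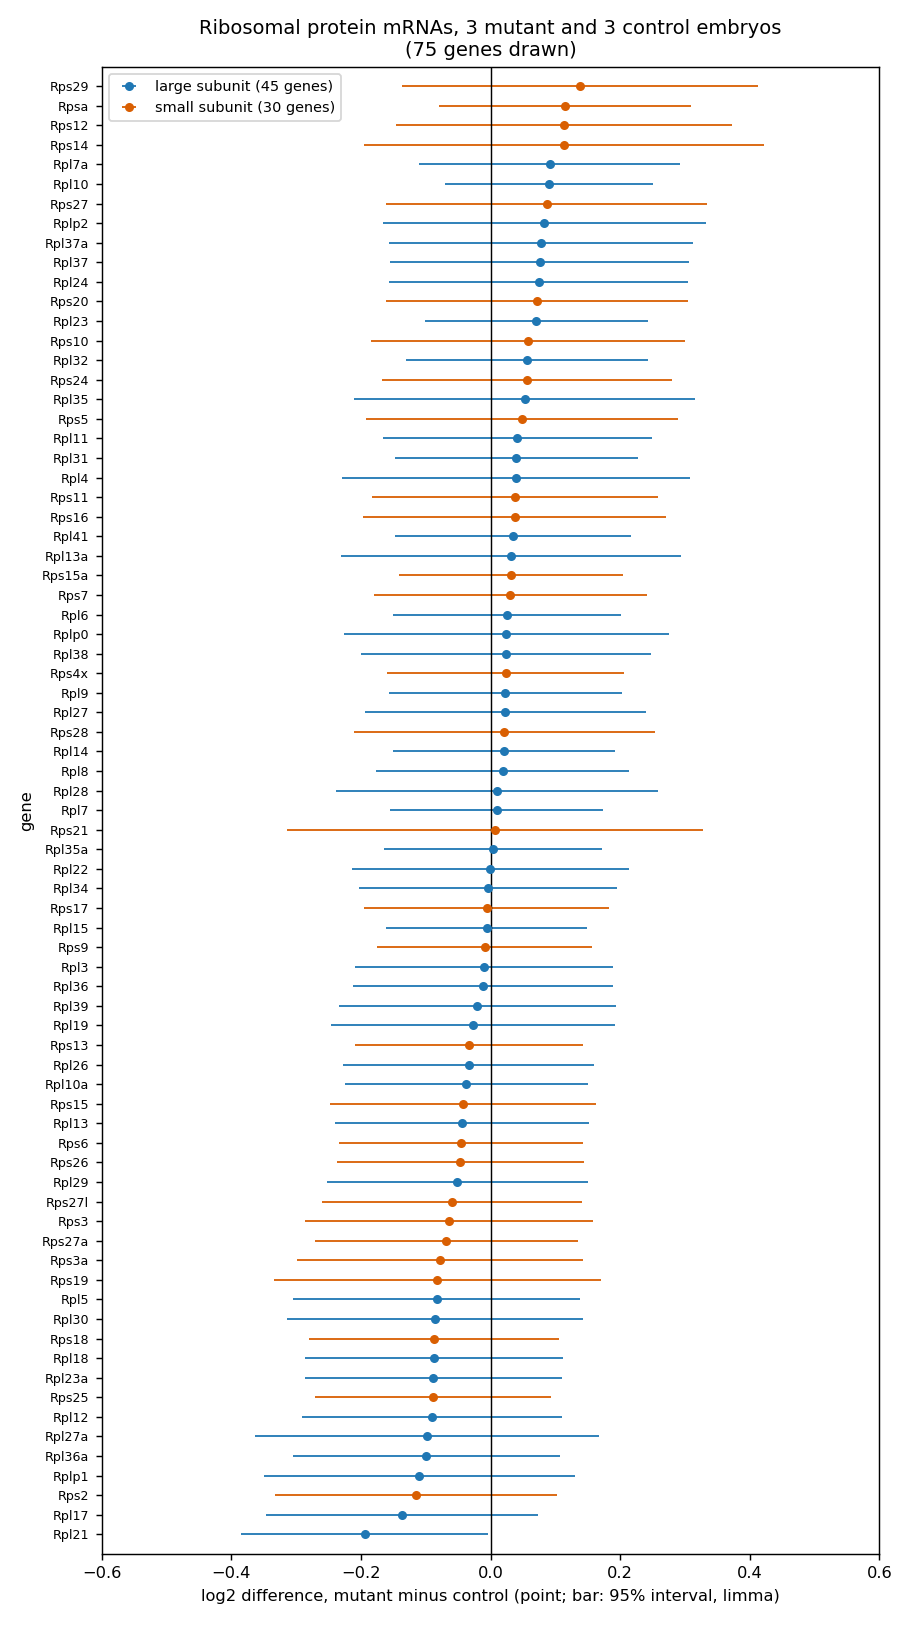
Each row is a ribosomal protein gene, with its log2 difference between 3 mutant and 3 control embryos (point) and the 95% interval from limma (bar), coloured by subunit; 75 genes are drawn, Rpl39l not among them. All points lie between -0.19 and 0.14, and only the interval of Rpl21 leaves out 0.

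The sign of so small a shift depended on the scaling. Of the 78 members, 42 were positive after scaling to the 75th percentile, 22 after quantile normalization, 29 after normexp correction, 5 after median centring and 26 by the authors' log2 values. Median centring moved the median of all rows from 0.02 to -0.08, and that of the members from 0.0095 to -0.09. Relative to the median of all rows the members stood at -0.02 under both of these scalings, at -0.01 under quantile normalization, at -0.03 by the authors' values and at -0.09 with normexp. The members called remained at 0 in every one of these fits. In the authors' deposited table the log2 ratios of the 78 probes ran from -0.16 to 0.11 with a median of -0.04. That table gives an fdr for 1 of them, Rpl39l (0.896), and for 11483 of its 27269 probes, so it holds no call for the other 77 members. Of all its probes 357 have an fdr under 0.05. Counts of calls given below by the authors' values come instead from limma fitted again to their log2 values.

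Rpl21, which encodes eL21 of the large subunit, was the lowest member. Control embryos gave -1.33, -1.16 and -1.31, and mutants -1.50, -1.45 and -1.42. Every mutant lay below every control, and below its own litter mate. The difference was -0.19 ± 0.08 (SE, n = 3 and 3; 95% interval -0.38 to -0.0038), with an unadjusted p of 0.047 and an adjusted p of 0.292 in limma, so that it did not pass. The second probe of Rpl21 gave a difference of -0.21 ± 0.08 and again did not overlap. The brighter probe lies at chr5:147648267-147648326 in build mm9, as the array annotation gives it. Its mean log2 signal of 9.12 is the second lowest among the chosen probes, which ranks probes and not mRNAs, since probes differ in how well they bind. The next chosen probe above it, of Rps27l, had 15.1, and the second probe of Rpl21 had 8.75. In signal both probes of Rpl21 thus resemble the dim probes of other members described below, of which 15 of 18 were negative.

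Rpl10, the X-linked gene of a protein that joins the large subunit late and completes its active site, was the other member whose groups did not overlap. Controls gave 7.40, 7.41 and 7.46 and mutants 7.56, 7.52 and 7.47. The gap between the groups was small, and control 3 and mutant 3 were nearly level. The difference was 0.09 ± 0.06 (SE; adjusted p = 0.519 in limma). Of its other probes 1 gave 0.09 without overlap and 1 gave 0.02 with overlap. Under the alternatives the difference of Rpl10 ran from -0.0090 to 0.11.

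The largest positive differences after Rpl39l were in small subunit genes. Rps29 had 6.92, 7.15 and 7.23 in controls and 7.36, 7.22 and 7.13 in mutants, a difference of 0.14 ± 0.11 (adjusted p = 0.566). Its groups overlapped, with mutant 3 below both control 2 and control 3. Rpsa, which is also known as the laminin receptor, had 7.54, 7.67 and 7.74 in controls and 7.81, 7.73 and 7.76 in mutants, a difference of 0.12 ± 0.08. Only control 3 lay within the range of the mutants. The probes of Rpsa at least 3 log2 units dimmer than this one went the other way. They gave -0.17, lower in every mutant, and -0.16, with overlap. Rps12 (0.11), Rps14 (0.11), Rpl7a (0.09), Rps27 (0.09), Rplp2 (0.08) and Rpl37a (0.08) followed, with adjusted p from 0.605 to 0.715 in limma. In the 9 highest members other than Rpl39l, Rpl10 included, control 1 was the lowest of the 6 embryos. These 9 kept a positive sign in 15 to 19 of 20 alternatives. The chosen probes of Rps29 and Rps27 are placed by the array annotation on chromosomes 2 and 9, and the genes on 12 and 3. Ribosomal protein genes have many processed pseudogenes, and whether a probe also binds near-identical copies was not tested.

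After Rpl21 came Rpl17 (-0.14 ± 0.09), Rps2 (-0.12 ± 0.09) and the stalk gene Rplp1 (-0.11 ± 0.10). Rps2 had 6.69, 6.82 and 6.90 in controls and 6.78, 6.67 and 6.61 in mutants. Mutants 2 and 3 lay below all controls, and mutant 1 lay above control 1. Rpl36a (-0.10), Rpl27a (-0.10), Rpl12 (-0.09), Rps25 (-0.09), Rpl23a (-0.09) and Rpl18 (-0.09) were the rest of the 10 lowest. These differences kept their negative sign in all 20 alternatives in which each gene was measured, with adjusted p never below 0.169.

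The members named for known roles beyond the core did not pass the threshold either. Their differences ran from the -0.11 of Rplp1 to the 0.12 of Rpsa, given above. The P-stalk recruits elongation factors to the ribosome: Rplp0 had a difference of 0.02 ± 0.10 and Rplp2 of 0.08 ± 0.10, against the -0.11 of Rplp1. Rplp0, often used as a reference gene, had 7.82, 8.06 and 8.15 in controls and 8.02, 8.06 and 8.03 in mutants; the mutants lay within the range of the controls. Rpl5 (-0.08 ± 0.09) and Rpl11 (0.04 ± 0.08) encode the proteins that bind MDM2 with the 5S RNA. Rps6, whose protein is phosphorylated by S6 kinase below mTORC1, differed by -0.04 ± 0.08, and Rps19, the gene most often mutated in Diamond-Blackfan anaemia, by -0.08 ± 0.10. Rps27a, which is made as a fusion with ubiquitin, differed by -0.07 ± 0.08. Among the probes with the strongest signal were those of Rplp0, Rps24, Rps14, Rplp2 and Rpl35, with differences from 0.02 to 0.11. No spot on any array was marked as saturated.

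Among paralogs and sex-chromosome copies, Rpl39l stood apart in its error. This testis-enriched relative of Rpl39 had -5.63, -5.31 and -7.57 in controls and -6.02, -5.47 and -5.81 in mutants. It was well above background on 5 of 6 arrays, with control 3 the lowest. Its difference of 0.40 had an SE of 0.60 (95% interval -1.09 to 1.89), and without control 3 it was -0.30. Rps27l, a p53 target, had a difference of -0.06 ± 0.08 and the X-linked Rps4x of 0.02 ± 0.07. Rpl39 itself differed by -0.02.

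The embryo that departed most from the others was a control. Control 1 was the lowest of the 6 embryos for 55 of 78 members, or 70.5%, against 16.4% of all rows. The members' median deviation from the control mean was -0.12 in control 1, 0.06 in control 2 and 0.06 in control 3, and it was 0.02 in mutant 1, 0.02 in mutant 2 and -0.01 in mutant 3. Control 1 was also the lowest embryo for 47.5% of the 992 brightest non-member rows (the top 5% by signal). Its array had the highest 75th percentile, 1833 against 1207 to 1480 on the other arrays. Slide 1 carried the embryos of litter 1 and slide 2 those of litters 2 and 3. The part of array signal and slide in the low values of control 1 was not tested.

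**Figure D2:**
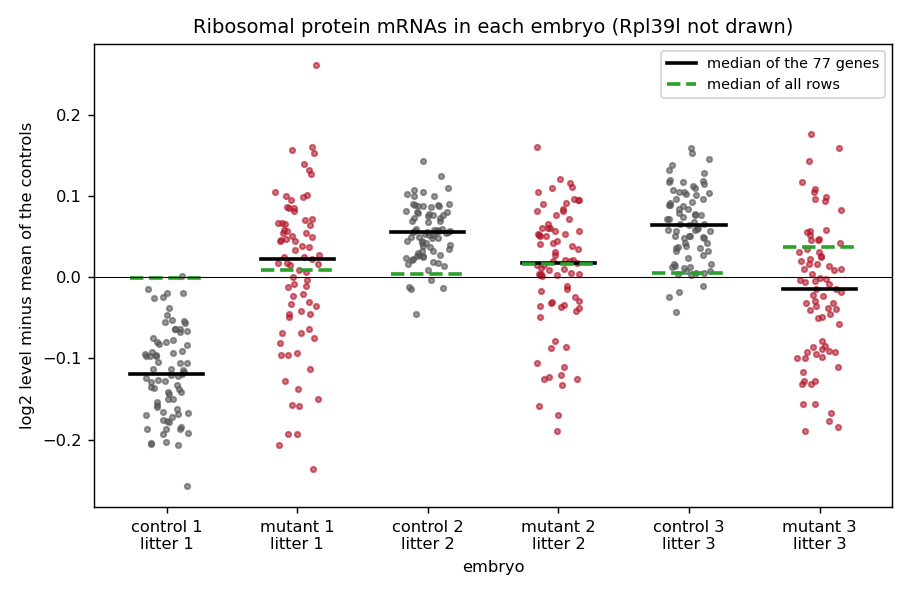
Each point is a ribosomal protein gene in an embryo, as its log2 level minus the mean of the 3 controls, with embryos ordered by litter; solid bars are medians of the 77 genes drawn and dashed bars medians of all rows. The median of control 1 is -0.12, while those of the 3 mutants lie between -0.01 and 0.02.

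Within litters the direction was not shared. In litter 1 the mutant was higher for 70 of 78 members (median difference 0.12), in litter 2 for 19 (median -0.03) and in litter 3 for 10 (median -0.08). The sign was the same in all 3 litters for 11 members, or 14.1%, against 47.2% of all rows. Over all rows the medians by litter were 0.01, 0.01 and 0.04. Over the 992 brightest non-member rows they were 0.07, -0.03 and -0.07, and 41.7% had the same sign in all 3 litters. On slide 2, which held 2 controls and 2 mutants, the members' median was -0.06, with 10 positive and 68 negative. It was 0.03 over all rows and -0.06 over the 992 brightest non-member rows. On that slide 44 members did not overlap, or 56.4%, against 55.9% of all rows. Without control 1 the median was -0.05, with 9 positive, and 31 members did not overlap, or 39.7%, against 38.2%. In both of these fits 0 members passed the threshold.

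Other probes of the same genes were then compared. The table held 177 probes of members, of which 176 were kept, and 54 genes had more than 1. Of the 98 kept probes that were not the brightest of their gene, 80 were less than 3 log2 units dimmer than it; their differences ran from -0.21 to 0.19 with a median of -0.03, and 13 did not overlap between groups, against 24.3% of all probes. The other 18 probes, from 17 genes, were at least 3 log2 units dimmer, a limit chosen after the values were seen. Of these 15 were negative, with a median of -0.18, and 9 lay lower in every mutant than in every control, against 12.0% of all probes. At an unadjusted p under 0.05 were 8 of the 18, all negative, against 7.43% of all probes in that direction. By adjusted p 0 of 176 passed, against 0.0261% of all probes.

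Rps15a shows the contrast within a gene. Its dim probe had -2.78, -2.69 and -2.92 in controls and -3.41, -3.06 and -3.08 in mutants, which did not overlap, and a difference of -0.39 ± 0.12 (adjusted p = 0.235 in limma). Its brightest probe had 6.45, 6.55 and 6.47 in controls and 6.59, 6.49 and 6.49 in mutants, which overlapped, and a difference of 0.03 ± 0.07. Dim probes of Rps27a (-0.42 ± 0.14), Rpl30 (-0.29 ± 0.07) and Rps3 (-0.22 ± 0.08) were likewise lower in every mutant, and were well above background on all 6 arrays. The dim probe of Rps6 went the other way (0.56 ± 0.36), with groups that overlapped. These probes carry the same gene symbol as the bright ones, and which transcripts they bind was not tested.

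**Figure D3:**
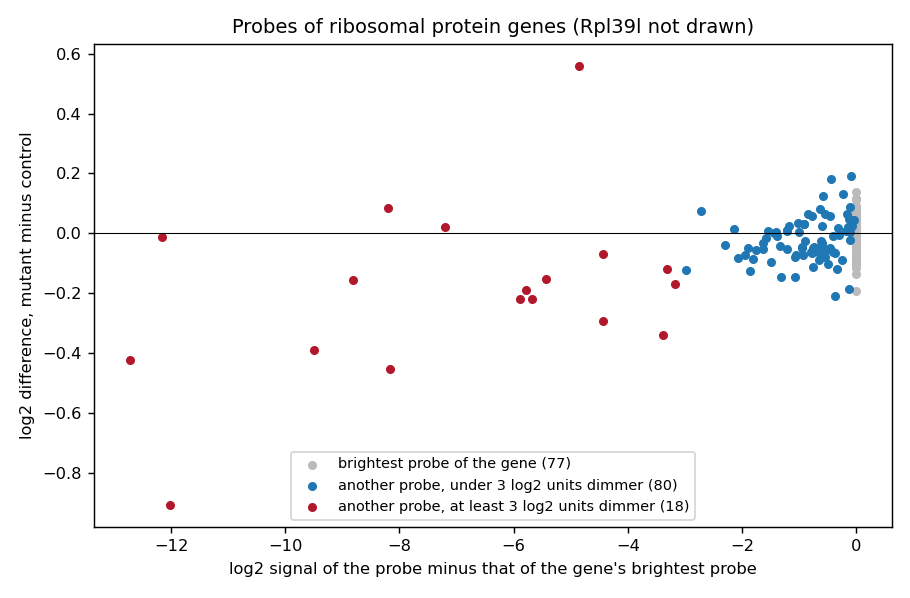
Each point is a kept probe of a ribosomal protein gene, by its log2 signal relative to the brightest probe of that gene and its log2 difference, mutant minus control; Rpl39l is not drawn. Bright and near-bright probes lie between -0.21 and 0.19, and 15 of the 18 dimmest lie below 0.

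Other genes of translation were read from the same fit, in lists chosen with earlier results known; 0 genes of any of them passed the threshold. The TOP list (elongation factors and other mRNAs with a TOP start) had 19 measured genes, 9 positive and 10 negative, with a median of -0.0079. Of these 6 did not overlap, against 24.8% of all rows, and 5 of them lay lower in every mutant, against 11.9%. Npm1, a nucleolar protein of ribosome assembly, differed by -0.22, Eef1d, an elongation factor subunit, by -0.25 and Nap1l1 by -0.14. Fau, which encodes a small subunit protein fused to a ubiquitin-like domain and falls outside the symbol rule, differed by 0.11.

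Initiation factors, which load the ribosome onto mRNA, had a median of -0.12 over 30 genes, 25 of them negative, and 12 lay lower in every mutant than in every control, against 11.9% of all rows. Eif5a, which relieves stalled ribosomes, had 4.53, 4.55 and 4.57 in controls and 4.28, 4.12 and 3.93 in mutants. The controls were tight and every mutant lay below them; the difference was -0.44 ± 0.10 (adjusted p = 0.175 in limma). Eif4g1, the scaffold of the cap-binding complex, differed by -0.26 ± 0.08 and Eif3a by -0.24 ± 0.06.

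Chaperones that escort single ribosomal proteins to assembly had a median of -0.23 over 7 genes, 6 of them negative, and 5 lay lower in every mutant, against 11.9% of all rows. Grwd1, the chaperone of RPL3, had 1.14, 1.30 and 1.31 in controls and 0.86, 0.79 and 0.82 in mutants. These groups did not overlap, and the difference was -0.43 ± 0.08 (adjusted p = 0.133). Ltv1, an assembly factor of the small subunit, differed by -0.31 ± 0.09 and Bccip, which binds RPL23, by -0.25 ± 0.07. Rpl3, the client of Grwd1, differed by -0.01 and Rpl23, bound by Bccip, by 0.07. Clients of the other chaperones in the list were not compared.

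The growth regulators (the MYC family, mTORC1 and its targets) had a median of -0.01 over 15 genes. Mycn, the MYC factor of neural precursors, had 3.15, 3.28 and 3.37 in controls and 2.28, 1.95 and 1.95 in mutants. The groups were far apart, with a difference of -1.21 ± 0.12, but the adjusted p of 0.060 in limma missed the threshold. Over 20 alternatives that p ran from 0.014 to 0.317 and the difference from -1.38 to -1.15. The authors' deposited table gives Mycn an fdr of 0.013. Larp1 differed by -0.31 ± 0.08 (adjusted p = 0.191) and Mycl by 0.42 ± 0.12 (adjusted p = 0.207); neither overlapped. Of the genes of the p53 response, Ccng1 differed by 0.26 ± 0.09, Cdkn1a by 0.47 ± 0.20 and Mdm2 by 0.12 ± 0.08, with adjusted p of 0.246, 0.311 and 0.476. The list of 6 had a median of 0.08, and of -0.02 with median centring.

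**Figure D4:**
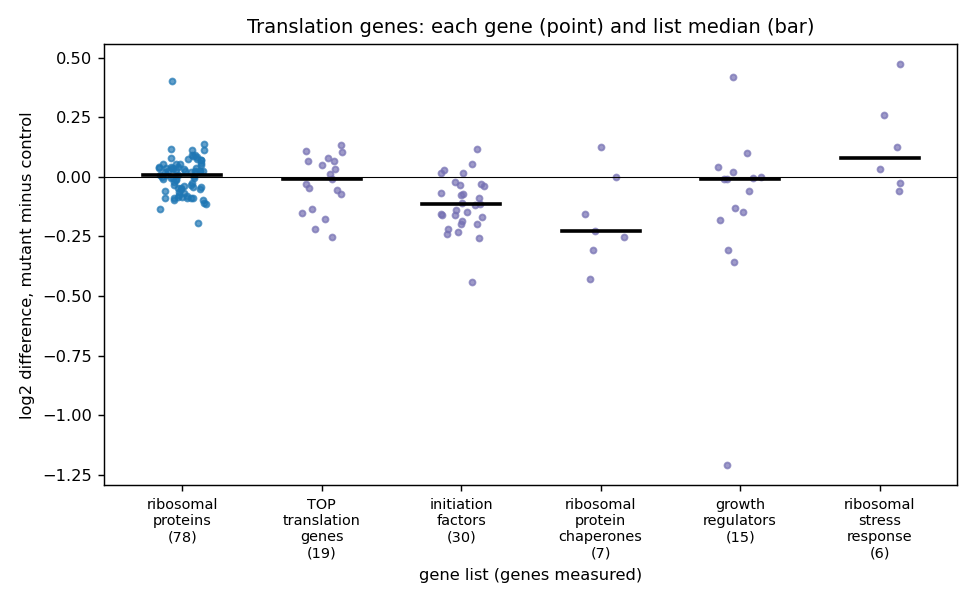
Each point is a gene, by its log2 difference, mutant minus control, and the bar is the median of its list; the number of genes measured stands under each name. Of the 78 ribosomal proteins 77 lie within 0.2 of 0, with Rpl39l at 0.40, and the lowest point among growth regulators is Mycn at -1.21.

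Relatives outside the symbol rule were few. Rpl7l1, a nucleolar relative of Rpl7, had -0.53, -0.62 and -0.52 in controls and -0.77, -0.89 and -0.93 in mutants, without overlap, a difference of -0.31 ± 0.08 (adjusted p = 0.188). Rpl22l1, which can take the place of Rpl22, differed by -0.07 and Rpl36al by -0.03. Rps19bp1, listed with them, is named as a binding protein of RPS19 and is not a relative. Its difference was -0.12.

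The labelled tissue was checked on markers. Emx1, Emx2, Pax6 and Lhx2 of the dorsal forebrain were each detected above background in all 6 embryos. None of the 4 passed the threshold, with Emx2 (-0.92), Emx1 (-0.81) and Lhx2 (-0.58) lower in every mutant and Pax6 (0.33) higher. In the authors' deposited table the fdr was 0.014 for Emx2, 0.038 for Lhx2, 0.098 for Emx1 and 0.084 for Pax6. All 5 neuron markers were positive (median 0.48) as were all 3 of basal progenitors (median 0.38). Radial glia markers had a median of 0.21 over 6 genes. The 6 erythroid markers were negative (median -0.28), with a median deviation of -0.85 in mutant 3. The 4 markers of microglia and macrophages were negative (median -0.31). The medians of meninges (5 genes) and endothelium (4 genes) were -0.06 and -0.02, but the direction was not shared between litters. Median differences within litters 1, 2 and 3 were 0.55, -0.19 and -0.62 for meninges. For endothelium they were 0.25, 0.0042 and -0.44. Both measured choroid plexus markers, Clic6 and Folr1, were high in mutants 1 and 2 and not in mutant 3. The part of cell composition in the values above was not tested, and in whole tissue fewer cells of a type and less RNA per cell cannot be told apart.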

How the data were processed

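RNA of 6 single embryos was measured on Agilent 1-colour arrays. The deposited scanner files hold spot intensity, extracted by the authors with Agilent Feature Extraction 10.7.3.1 (per the file headers). That signal has the background subtracted within each array and was not scaled between arrays. The authors' deposited table adds log2 values, a log2 ratio, a ratio, a p-value and an fdr for mutant against control. Its columns were used by group, since their numbers do not follow the sample titles. The submitters' processing notes name limma.

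Log2 processed signals were scaled to each array's 75th percentile. A probe was kept if it was marked well above background in 3 or more of the 6 embryos (26849 of 39429), and the brightest probe of a gene gave 21328 rows, 17051 of them named. Mutants were set against controls in limma 3.58.1 (lmFit, eBayes; R 4.3.3), two-sided, with Benjamini-Hochberg adjustment over all rows and a threshold of 0.05. The procedure was tested on simulated data. Python 3.11.15, pandas 2.3.3 and matplotlib 3.10.9 read the promoter sequences and drew the figures.

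The members and gene lists were chosen with earlier results of these data known. Members were taken from the symbol column that carries the array maker's annotation. Named are the 10 highest and 10 lowest differences, the 6 brightest members, Rplp0, Rplp1, Rplp2, Rpsa, Rpl5, Rpl11, Rps6, Rps19, Rps27a, the paralogs Rpl39l, Rps27l and Rps4x, and up to 3 genes of smallest p from each list; other genes were chosen after their values were seen. Pairing by litter comes from the sample titles. Deviations of litter mates from their group means gave r over probes of 0.303, 0.340 and 0.109 in litters 1, 2 and 3. Control and mutant embryos of unlike litters gave r between -0.381 and 0.091. The highest of these, control 3 with mutant 2, was close to the value of litter 3. Deviations within a group sum to 0, so these r values depend on each other. Litter 1 was also all of slide 1, so litter and slide cannot be told apart there. Alternatives were normexp (offset 50), quantile, median and 95th percentile scaling, other filters, all or averaged probes, litter or slide as a block, other variance models, the authors' values, other member rules and omission of each embryo. The number of arrays limits the precision. A few genes that the naming rule would give are not reported here.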

Additional observations from a re-analysis of the deposited data

How the results depend on the processing

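The members called stayed at 0 in every fit. The count of all rows called, 7, was 122 with normexp, 15 with quantile normalization, 24 with median centring, 0 without a filter, 26 with all 6 arrays above background, 2 after averaging probes by gene, 0 with litter and 0 with slide as a block, 143 with trend and robust variance, 19 with array weights, 34 by the authors' values and 79 at an adjusted p under 0.1; chosen after seeing the data, it was 0 on slide 2 alone, 2 with the litter block plus trend and robust variance, and 4 with 95th percentile scaling. Without each embryo in turn it ran from 0 to 1. The litter block changed no other call. The members that did not overlap were 2 of 78, against 24.8% of all rows. They were 10 with quantile normalization (24.5% of all rows), 6 with averaged probes (24.9%) and 15 by the authors' values (23.3%). Over all probes 24 of 176 did not overlap, against 24.3% of all probes. Chosen after seeing the data, they were 44 on slide 2 alone (55.9% of all rows) and 7 with 95th percentile scaling (24.9%). With the dimmest kept probe of each member, also chosen after seeing the data, they were 15, against 24.3% of all probes. Without each embryo in turn they ran from 3 to 31, where 28.6% to 42.3% of all rows did not overlap. The members' median, 0.0095, was -0.090 with median centring and -0.16 over the 11 genes of the second symbol column (chosen after seeing the data); without each embryo it ran from -0.05 to 0.04. Mycn passed in 6 of 20 alternatives.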
